A study of Homo sapiens with 6 samples.

Results

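Heat shock proteins and chaperonins are the chaperones that hold, fold and refold other proteins, and 40 of their genes were examined. The list was taken by function and not by measured change, although earlier results of these data were known when it was chosen. It held 2 heat shock factors, 16 genes that HSF1 is known to induce, 14 constitutive chaperones and cochaperones, and the 8 subunit genes of the TRiC chaperonin. All 40 genes were found among 60612 gene identifiers. All 40 also passed the filter of a mean of at least 0.5 FPKM that 14770 genes passed. FPKM counts fragments per length of transcript and per size of the library, so that levels of different genes can be set side by side.

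RNA was sequenced from MDA-MB-231, an established human TNBC cell line, which expressed either a control hairpin (Sh-NC, labelled WT) or a hairpin against YAP1 (Sh-YAP1, labelled YAP1 knockdown). Each group held 3 libraries, all from day 3 and all labelled as untreated, and both groups carried a hairpin. The comparison asks which transcripts differ when YAP1, a transcriptional coactivator of the Hippo pathway, is depleted. The labels name no clone, pool or separate culture behind a replicate number, so p-values measure the spread between these libraries, which may be technical. YAP1 itself was at 28.1, 26.2 and 22.9 FPKM in the Sh-NC libraries and at 3.35, 2.67 and 2.58 FPKM in the Sh-YAP1 libraries.

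Each library summed to 467493 to 475116 FPKM and had 13037 to 13219 genes at 1 FPKM or more. No counts accompany the values, so the depth of the libraries is unknown. Of the genes that mark this mesenchymal line, VIM lay between 1645 and 2303 FPKM and CD44, CAV1 and AXL were at 113.6 FPKM or more in every library. The defining hormone receptors ESR1 and PGR were at 0.07 FPKM or less, CDH1 at 0.49 FPKM or less and FOXA1 at 1.03 FPKM or less, while the luminal gene GATA3 was present at 4.64 to 7.34 FPKM. The leukocyte genes PTPRC and CD14 reached at most 0.04 and 0.84 FPKM, and CD3E was listed at 0 in all 6 libraries.

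Heat, oxidants and other insults that unfold proteins release HSF1, which binds repeated short DNA elements before chaperone genes and induces them. HSP70 proteins then bind exposed stretches with the help of J-domain proteins and nucleotide exchange factors, HSP90 proteins mature kinases and receptors, and small heat shock proteins hold unfolded chains in solution. The TRiC ring folds actin and tubulin in the cytosol, and HSP60 with its lid HSP10 does the same work for the mitochondrial matrix. Cancer cells commonly keep many of these genes at high levels without heat.

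The DNA that HSF1 reads is a run of alternating GAA and TTC units. Upstream windows of 250 bases before RefSeq transcription starts (GRCh38.p14) were searched for 2 such units, GAANNTTC or TTCNNGAA, and for 3 units, GAANNTTCNNGAA or TTCNNGAANNTTC. Each motif set reads the same on both strands, and a 3-unit match contains overlapping 2-unit matches. Of all 35116 windows, 11.6% held a 2-unit match and 0.441% a 3-unit match. Of the 40 members, 36 had a window, and their 51 windows held a 2-unit match in 16 windows of 16 genes and a 3-unit match in 5 windows of 5 genes. The genes with 3 units were HSP90AA1, HSPD1, HSPA8, HSP90AB1 and DNAJB6. By group, 10 of 15 HSF1-induced, 4 of 13 constitutive and 2 of 7 TRiC genes with a window had a 2-unit match. Those of TRiC were CCT2 and TCP1. The HSF1-induced genes BAG3, HSPH1, STIP1, AHSA1 and HSPE1 had none in their windows.

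Stretches of these windows that lie outside annotated exons are shown for 6 genes with matches and, for contrast, for CCT7, the TRiC subunit with the lowest log2 fold change. Capitals mark the heat shock elements, and each stretch is written 5′ to 3′ on the strand of its gene.
HSPA1A (chr6:31815293-31815463, plus strand): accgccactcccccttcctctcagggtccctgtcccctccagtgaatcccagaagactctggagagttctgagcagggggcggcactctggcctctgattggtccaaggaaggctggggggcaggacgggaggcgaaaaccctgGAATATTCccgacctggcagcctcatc
HSPA1B (chr6:31827488-31827734, plus strand): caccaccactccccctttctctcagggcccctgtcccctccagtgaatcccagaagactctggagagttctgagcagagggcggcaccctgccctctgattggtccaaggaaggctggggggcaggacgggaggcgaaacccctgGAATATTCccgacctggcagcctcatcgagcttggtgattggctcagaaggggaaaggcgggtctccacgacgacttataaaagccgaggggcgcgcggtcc
DNAJB1 (chr19:14518421-14518647, minus strand): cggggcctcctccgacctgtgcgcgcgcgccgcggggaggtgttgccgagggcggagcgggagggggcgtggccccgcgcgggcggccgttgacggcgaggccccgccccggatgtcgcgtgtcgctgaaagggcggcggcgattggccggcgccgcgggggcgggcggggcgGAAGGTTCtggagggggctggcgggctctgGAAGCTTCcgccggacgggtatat
HSPB1 (chr7:76302423-76302543, plus strand): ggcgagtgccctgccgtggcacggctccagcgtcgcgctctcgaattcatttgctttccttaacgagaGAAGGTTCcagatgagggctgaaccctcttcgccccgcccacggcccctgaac
HSP90AB1 (chr6:44247693-44247865, plus strand): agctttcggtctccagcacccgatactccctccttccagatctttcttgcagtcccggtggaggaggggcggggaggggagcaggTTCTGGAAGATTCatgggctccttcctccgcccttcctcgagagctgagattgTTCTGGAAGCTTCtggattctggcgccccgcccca
DNAJB6 (chr7:157336774-157336965, plus strand): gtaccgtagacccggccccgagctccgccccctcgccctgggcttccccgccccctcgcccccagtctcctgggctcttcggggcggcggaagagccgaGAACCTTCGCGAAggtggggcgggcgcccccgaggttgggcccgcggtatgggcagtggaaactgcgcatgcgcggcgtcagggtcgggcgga
CCT7 (chr2:73234058-73234235, plus strand): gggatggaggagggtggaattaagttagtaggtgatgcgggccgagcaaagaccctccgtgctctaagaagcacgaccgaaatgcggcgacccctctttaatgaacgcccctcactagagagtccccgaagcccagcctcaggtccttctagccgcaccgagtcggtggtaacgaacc
HSPA1A and HSPA1B carry the same element, GAATATTC. HSP90AB1 holds 2 full 3-unit runs in this stretch and DNAJB1 holds 2 separate 2-unit elements. The stretch of CCT7 has none of these letters. For TEAD factors, the DNA-binding partners of YAP1, the core GGAATG or CATTCC stood in 11.9% of all windows and in 3 of the 51 windows of members, those of AHSA1, HSPA4L and STIP1. Matches are descriptions of the letters and no binding was measured.

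The median of the chaperone genes lay slightly below that of all genes in Sh-YAP1, and a single member passed the test. HSPA9, the mitochondrial HSP70, fell, and no member rose, at an adjusted p under 0.05 from limma with Benjamini-Hochberg adjustment over all genes tested. That is 2.5% of the members, beside 3.38% of all 14770 genes called in either direction, 1.62% called lower and 1.75% called higher. At an unadjusted p under 0.05, 12 members were lower and 0 were higher, 30.0% of the members beside 21.9% of all genes in both directions and 11.1% in the lower direction. The groups did not overlap for 19 members, 14 lower (35.0%) and 5 higher (12.5%). Over all genes, 29.4% had groups without overlap, 14.7% lower and 14.6% higher. The share of members with lower values was 67.5%, or 27 of 40, beside 50.2% of all genes tested. The median log2 fold change was -0.11 over the members and -0.0014 over all genes tested, on the log2(FPKM + 1) scale used for every fold change here. In bulk RNA, fewer cells that express a gene and less of its RNA per cell cannot be told apart.

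**Figure D1:**
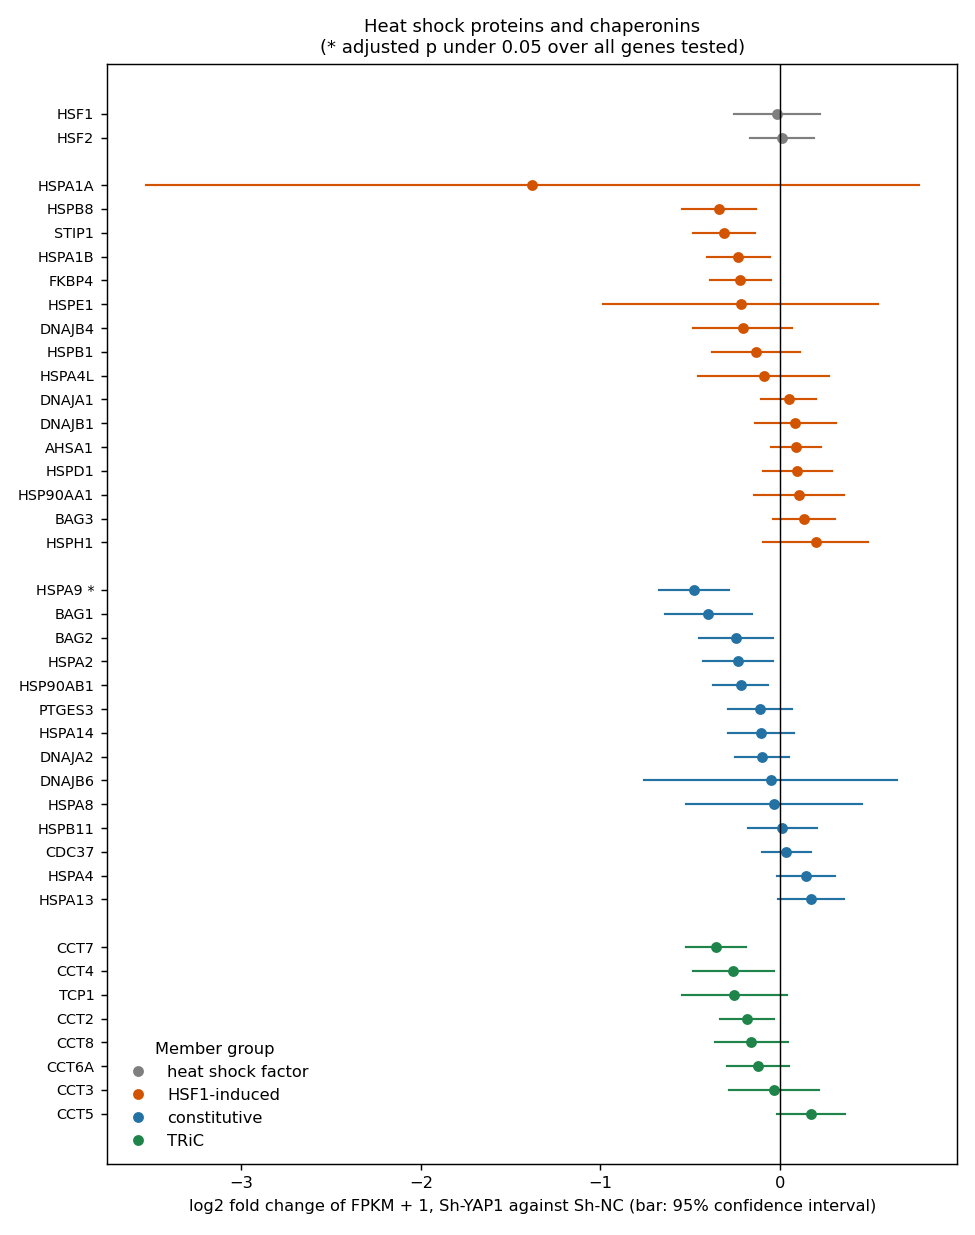
Log2 fold change of each of the 40 genes in Sh-YAP1 against Sh-NC (x axis, log2 of FPKM + 1), with 95% confidence intervals from limma over 3 libraries a group. Most points lie within 0.5 of 0, 27 of 40 are to the left of 0, HSPA9 carries the asterisk of an adjusted p under 0.05, and the interval of HSPA1A is the widest.

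The levels themselves were high. The 40 genes together held between 1.16% and 1.28% of all FPKM in the Sh-NC libraries and between 1.08% and 1.25% in the Sh-YAP1 libraries, ranges that overlap. HSPA8 stood first with a mean of 931 FPKM over the 6 libraries, followed by HSP90AB1 with 715 FPKM and HSP90AA1 with 627 FPKM. The library ranges of HSPA8 and HSP90AB1 overlapped, as did those of HSP90AB1 and HSP90AA1. CCT3, the fourth, had a mean of 312 FPKM, and its highest library, 349.5 FPKM, was below the lowest of HSP90AA1, 535 FPKM. At the other end were DNAJB4 with 3.46 FPKM, HSPB8 with 3.41 FPKM, HSPA4L with 3.11 FPKM and HSPA2, the HSP70 best known from testis, with 2.78 FPKM. The mean of HSPA8 exceeded that of 99.7% of the genes tested and the mean of HSPA2 that of 28.4%.

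The heat shock factors differed by less than the spread between libraries. HSF1, the main activator of the heat shock response, was at 32.7, 33.8 and 32.2 FPKM in Sh-NC and at 37.2, 31.8 and 29.02 FPKM in Sh-YAP1. The fold change on the log2 scale was -0.02, with a 95% confidence interval from -0.26 to 0.22. HSF2, a related factor that can pair with HSF1, was at 6.54, 6.28 and 6.78 FPKM in Sh-NC and at 6.60, 6.72 and 6.48 FPKM in Sh-YAP1, a log2 fold change of 0.01 with an interval from -0.17 to 0.19. For both genes the Sh-YAP1 values surrounded or lay among the control values. These are levels of mRNA, while HSF1 is mostly controlled as a protein.

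Of the 16 genes that HSF1 induces, none passed the test, 4 were lower at an unadjusted p under 0.05 and 0 were higher. In this group 9 genes had lower and 7 higher values, and the median log2 fold change was -0.11. Without Sh-NC replicate 3 that median was -0.02. The inducible cytosolic HSP70 is encoded by HSPA1A and HSPA1B, neighbours on chromosome 6 (GRCh38, 31815464-31817946 and 31827735-31830255, plus strand). Their longest open reading frames are identical at 1922 of 1926 positions, so fragments may be divided between them with error, and the values of each gene are uncertain. HSPA1A was at 28.5, 28.5 and 25.9 FPKM in Sh-NC and at 21.9, 24.9 and 1.24 FPKM in Sh-YAP1, in which replicate 3 stood far below the other libraries. Its log2 fold change was -1.38 with a standard error of 0.90 and an adjusted p of 0.420 (limma). Without Sh-YAP1 replicate 3 it was -0.23, so that library sets the size of the difference.

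HSPA1B was at 57.5, 55.9 and 50.8 FPKM in Sh-NC and at 45.4, 45.9 and 48.0 FPKM in Sh-YAP1, a log2 fold change of -0.23 with an adjusted p of 0.137 (limma). The low HSPA1A value of Sh-YAP1 replicate 3 was not matched by a high HSPA1B value. The sum of both genes was 86.1, 84.4 and 76.7 FPKM in Sh-NC and, in the knockdown libraries, 67.3, 70.8 and 49.3 FPKM, all of them lower, also when replicate 3 is set aside. The exact permutation p of these sums was 0.1 (two-sided), which is the lowest that 3 against 3 libraries can give.

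HSP90AA1, the stress-inducible cytosolic HSP90, had a higher mean in Sh-YAP1 than in Sh-NC, within the spread. It was at 535, 589 and 694 FPKM in Sh-NC and at 625, 644 and 677 FPKM in Sh-YAP1. The Sh-YAP1 values lay inside the control range, and the log2 fold change was 0.11 with an interval from -0.14 to 0.36. Leaving out 1 control moved it to 0.02 (Sh-NC replicate 1) or 0.21 (Sh-NC replicate 3). HSPB1, the small heat shock protein HSP27, was at 141, 181 and 162 FPKM in Sh-NC and at 154, 142 and 143 FPKM in Sh-YAP1, a log2 fold change of -0.13 with groups that overlapped. It became -0.05 without Sh-NC replicate 2 and -0.23 without Sh-NC replicate 1. HSPB8, the small heat shock protein that works with BAG3, was lower in every Sh-YAP1 library, with a control mean of 3.92 ± 0.0839 FPKM and a knockdown mean of 2.89 ± 0.215 FPKM (SD, n = 3 each). The log2 fold change was -0.34 with an adjusted p of 0.0894 (limma), which missed the threshold.

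HSPH1, the HSP110 exchange factor of HSP70, had the highest log2 fold change of all members, 0.20 with an interval from -0.09 to 0.49. Its values were 49.7, 45.8 and 54.0 FPKM in Sh-NC and, with YAP1 depleted, 67.7, 53.4 and 51.8 FPKM, so replicate 1 alone stood above the controls. Without that library the log2 fold change was 0.08, below that of HSPA13 with 0.20, and without rows above 1 FPKM in 1 library it was 0.07. BAG3, the exchange factor that links HSP70 to autophagy, was at 82.4, 81.1 and 74.4 FPKM in Sh-NC and at 92.1, 85.4 and 84.1 FPKM in Sh-YAP1. Every Sh-YAP1 library was above every control for BAG3, with a log2 fold change of 0.14 and an adjusted p of 0.330 (limma). DNAJB1, the J-domain protein HSP40, was at 124, 116 and 145 FPKM in Sh-NC and at 130.5, 137 and 139.7 FPKM in Sh-YAP1, a log2 fold change of 0.09 with overlapping groups, which was 0.02 without Sh-NC replicate 2 and 0.18 without Sh-NC replicate 3. BAG3 and HSPH1 are classic heat-inducible genes, as are HSPA1A and HSPA1B, which had lower values, so the signs within this group were mixed.

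The other J-domain genes of the group were DNAJA1, with a log2 fold change of 0.05, and DNAJB4, with -0.21, and HSPA4L, a relative of HSPH1, had -0.09. All 3 values depended on single libraries. DNAJA1 ran from 0.03 (without Sh-NC replicate 1) to 0.09 (without Sh-NC replicate 3), DNAJB4 from -0.30 (without Sh-YAP1 replicate 2) to -0.13 (without Sh-YAP1 replicate 3) and HSPA4L from -0.23 (without Sh-YAP1 replicate 1) to -0.0044 (without Sh-NC replicate 3). Of the HSP90 cochaperones, STIP1, which hands clients from HSP70 to HSP90, was lower in every Sh-YAP1 library, with a control mean of 183 ± 2.96 FPKM and a knockdown mean of 148 ± 10.5 FPKM (SD, n = 3 each). Its log2 fold change was -0.31 with an adjusted p of 0.0724 (limma). FKBP4, a cochaperone of steroid receptors, had -0.22 with an adjusted p of 0.146 (limma) and groups that did not overlap. AHSA1, which speeds the ATPase of HSP90, had 0.09, also without overlap but in the other direction, and its groups overlapped once rows above 1 FPKM in 1 library were left out. In the same setting DNAJB4, whose groups otherwise overlapped, was lower in every Sh-YAP1 library, with a log2 fold change of -0.31.

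**Figure D2:**
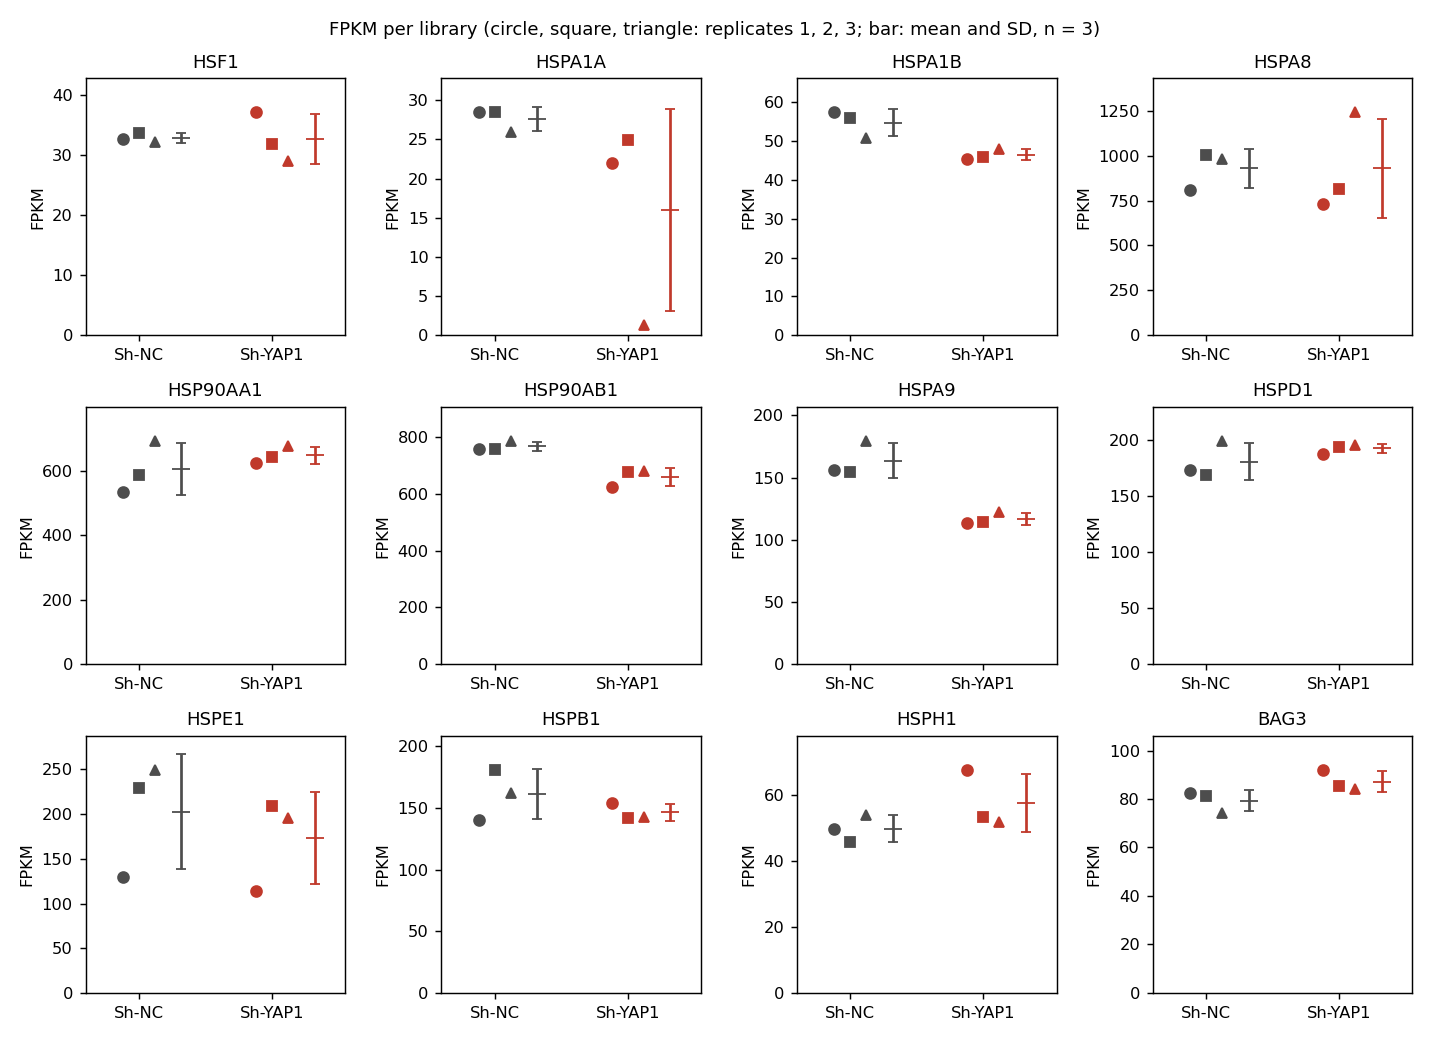
FPKM of 12 genes in each library (y axes from 0, circle, square and triangle for replicates 1, 2 and 3, bars for the mean and SD of 3 libraries). The panels show HSPA9, HSP90AB1 and HSPA1B without overlap between Sh-NC and Sh-YAP1, the single low HSPA1A value of 1.24 FPKM, the single high HSPA8 value of 1245 FPKM, and HSPE1 low in replicate 1 of both groups.

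Of the mitochondrial chaperones among the members, HSPA9 was called, and HSPD1 and HSPE1 were not. HSPA9, also called mortalin, imports and folds proteins in the matrix and lies on chromosome 5 (GRCh38, 138553756-138575724, minus strand). It was at 156, 155 and 179.5 FPKM in Sh-NC and at 113, 114 and 122 FPKM in Sh-YAP1, so the highest Sh-YAP1 library was below the lowest control. The mean fell by 28.6%, from 163 ± 13.995 to 117 ± 5.02 FPKM (SD, n = 3 each). The log2 fold change was -0.48 (standard error 0.081, interval from -0.68 to -0.29), with an adjusted p of 0.0346 (limma). The exact permutation p was 0.1 (two-sided), the lowest possible here. The call was kept in 7 of 16 alternative settings, over which the adjusted p (limma) ran from 0.0310 to 0.127, and it was lost whichever library was left out, with adjusted p between 0.0725 and 0.116. The direction was the same in all of them, with log2 fold changes between -0.52 and -0.41.

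HSPD1, the HSP60 chaperonin, was at 173, 169 and 199 FPKM in Sh-NC and at 188, 194 and 195 FPKM in Sh-YAP1, a log2 fold change of 0.10 with overlapping groups (0.05 without Sh-NC replicate 2 and 0.17 without Sh-NC replicate 3). HSPA9 made up 47.4%, 47.8% and 47.4% of the sum of HSPA9 and HSPD1 in Sh-NC and 37.6%, 37.1% and 38.5% in Sh-YAP1. This share was formed after the values were seen and is given without a test. HSPE1, the HSP10 lid of HSP60, has a RefSeq start 105 bases from that of HSPD1 on the opposite strand of chromosome 2. Its values were 129, 229 and 249.7 FPKM in Sh-NC and, in the knockdown libraries, 114.5, 209 and 196 FPKM, a log2 fold change of -0.22 with an interval from -0.98 to 0.55, and it was 0.05 without Sh-YAP1 replicate 1 and -0.51 without Sh-NC replicate 1. Replicate 1 was low in both groups for HSPE1 but not for HSPD1, and the ratio of HSPE1 to HSPD1 ran from 0.747 to 1.36 in Sh-NC and from 0.609 to 1.08 in Sh-YAP1.

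**Figure D3:**
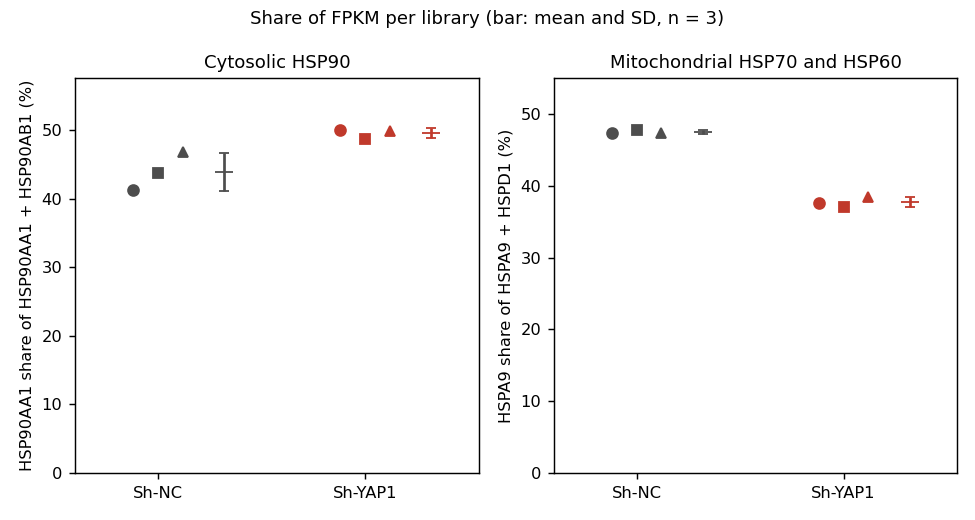
Share of HSP90AA1 in the FPKM of HSP90AA1 plus HSP90AB1 (left) and of HSPA9 in that of HSPA9 plus HSPD1 (right) in percent, by library, with the mean and SD of 3 libraries. The HSP90AA1 share is higher and the HSPA9 share lower in every Sh-YAP1 library than in every Sh-NC library.

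Among the 14 constitutive genes, HSPA9 was the one called. At an unadjusted p under 0.05, 5 were lower and 0 higher, 10 had lower values, and the median log2 fold change was -0.10. HSP90AB1, the constitutive cytosolic HSP90, was at 761, 758 and 788 FPKM in Sh-NC and at 625, 678 and 681 FPKM in Sh-YAP1, lower in every library. Its log2 fold change was -0.22 (standard error 0.064) with an adjusted p of 0.116 (limma). HSP90AA1 made up 41.3%, 43.7% and 46.8% of the cytosolic HSP90 transcripts in Sh-NC and 50.01%, 48.7% and 49.9% in Sh-YAP1. The share differed by 5.60 percentage points (exact two-sided permutation p = 0.1, the smallest possible), with no overlap between the groups. The longest open reading frames of the 2 genes were identical in 1682 of 2582 alignment columns, or 65.1%, beside 99.8% for HSPA1A and HSPA1B. Columns with gaps are counted, so identity over paired positions alone may be higher.

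HSPA8, the constitutive HSP70 known as HSC70, was at 807, 1006 and 981 FPKM in Sh-NC and at 732, 816 and 1245 FPKM in Sh-YAP1. The groups overlapped, with a log2 fold change of -0.03 and an interval from -0.53 to 0.46, and the value was 0.12 without Sh-YAP1 replicate 1 and -0.26 without Sh-YAP1 replicate 3. The high value of Sh-YAP1 replicate 3 held a single transcript row of 570.4 FPKM that was listed at 0 in the other 5 libraries. Without that row the library had 675 FPKM, and the control and knockdown means were 931 ± 108 and 741 ± 70.9 FPKM (SD, n = 3 each), with groups that still overlapped. With all rows above 1 FPKM in 1 library left out, the log2 fold change of HSPA8 was -0.32. The share of HSPA1A plus HSPA1B in the sum with HSPA8 was 8.21% ± 1.26 in Sh-NC and 6.74% ± 2.55 in Sh-YAP1 (SD, n = 3 each), which overlapped (exact two-sided permutation p = 0.6). Without Sh-YAP1 replicate 3 the difference of -1.47 percentage points became -0.0049.

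The remaining constitutive genes had log2 fold changes of both signs. BAG1, an exchange factor of HSP70, had a log2 fold change of -0.40 with an adjusted p of 0.0887 (limma), with means of 16.4 ± 1.09 and 12.2 ± 1.40 FPKM in the 2 groups (SD, n = 3 each, Sh-NC first). BAG2, which restrains the ubiquitin ligase partner of HSP70, had -0.24 and HSPA2 had -0.23, both without overlap between the groups. DNAJA2 had -0.10, PTGES3, the p23 cochaperone of HSP90, had -0.11, and HSPA14, a ribosome-associated HSP70, had -0.10. PTGES3 was at -0.17 without Sh-YAP1 replicate 1, and HSPA14 was at -0.06 without Sh-NC replicate 3 and at -0.16 without Sh-NC replicate 2. On the higher side, HSPA4, an exchange factor of the HSP110 family, had 0.15 and HSPA13, a microsomal HSP70, had 0.17, both without overlap. CDC37, which brings kinases to HSP90, had 0.04 (0.02 without Sh-NC replicate 3 and 0.06 without Sh-NC replicate 2). It had -0.17 without its rows above 1 FPKM in 1 library. That setting drops a row of 60.95 FPKM in Sh-YAP1 replicate 1, where the leading row was at 98.5 FPKM. With all rows the CDC37 total there was 170 FPKM, among those of the other libraries. HSPB11, which despite its name is a subunit of intraflagellar transport (IFT25), had 0.01. DNAJB6, a J-domain protein that holds back aggregation, had -0.05 with a wide interval from -0.76 to 0.65, since Sh-YAP1 replicate 2 was at 121 FPKM and replicates 1 and 3 at 55.7 and 64.8 FPKM.

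The TRiC subunits mostly had lower values in Sh-YAP1, although no subunit passed the test. Of 8 subunits, 7 had lower values, 3 were lower at an unadjusted p under 0.05 and 0 were higher, and the median log2 fold change was -0.17. The direction of CCT3 and CCT8 depended on the setting. Without the rows above 1 FPKM in 1 library, CCT8 was at 0.43 and CCT3 at 0.08, which left 5 subunits lower. Quantile normalization also turned CCT3, to 0.05. For CCT8, leaving rows out removes a row of 82.6 FPKM in Sh-NC replicate 1, where its leading row was at 22.1 FPKM. With all rows the CCT8 total of that library, 118 FPKM, lay among those of the other libraries, and the setting drops part of that total. CCT7 had the lowest log2 fold change and lies on chromosome 2 (GRCh38, 73233420-73253021, plus strand). It was at 269, 268 and 256 FPKM in Sh-NC and at 192, 217 and 211 FPKM in Sh-YAP1, so all Sh-YAP1 libraries were below all controls. Its log2 fold change was -0.36 (standard error 0.070) with an adjusted p of 0.0505 (limma), just outside the threshold. It passed in 3 of 16 alternative settings, over which the adjusted p (limma) ran from 0.0438 to 0.165. CCT5 was the exception in direction, at 168, 191 and 196 FPKM in Sh-NC and at 207, 203 and 216 FPKM in Sh-YAP1, a log2 fold change of 0.17 with an adjusted p of 0.256 (limma). Without Sh-NC replicate 1 its log2 fold change was 0.11.

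CCT4, with a log2 fold change of -0.26, and CCT2, with -0.18, were without overlap between the groups. TCP1 with -0.25, CCT8 with -0.16 (-0.09 without Sh-NC replicate 2), CCT6A with -0.12 and CCT3 with -0.03 overlapped. The 8 subunits of the ring are present in equal numbers in the protein complex, while their transcripts were not equal. CCT3 was the highest and TCP1 the lowest subunit in all 6 libraries, and the ratio between them ran from 2.64 to 4.13. This order rested in part on rows above 1 FPKM in 1 library. Without them CCT7 was the highest subunit in Sh-NC replicate 2 and CCT8 the lowest in Sh-NC replicate 1. The sum over the subunits was 1366, 1455 and 1426 FPKM in the controls and 1222, 1329 and 1327 FPKM with YAP1 depleted. These sums did not overlap, but the Sh-NC replicate 1 sum held a CCT8 row of 82.6 FPKM that was listed at 0 in the other 5 libraries. Without that row its sum was 1283 FPKM, the groups overlapped, and CCT8 in that library was at 34.9 FPKM. With the row, CCT8 there was at 118 FPKM, among the other libraries, so the overlap of the sums rests on dropping part of the CCT8 total.

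**Figure D4:**
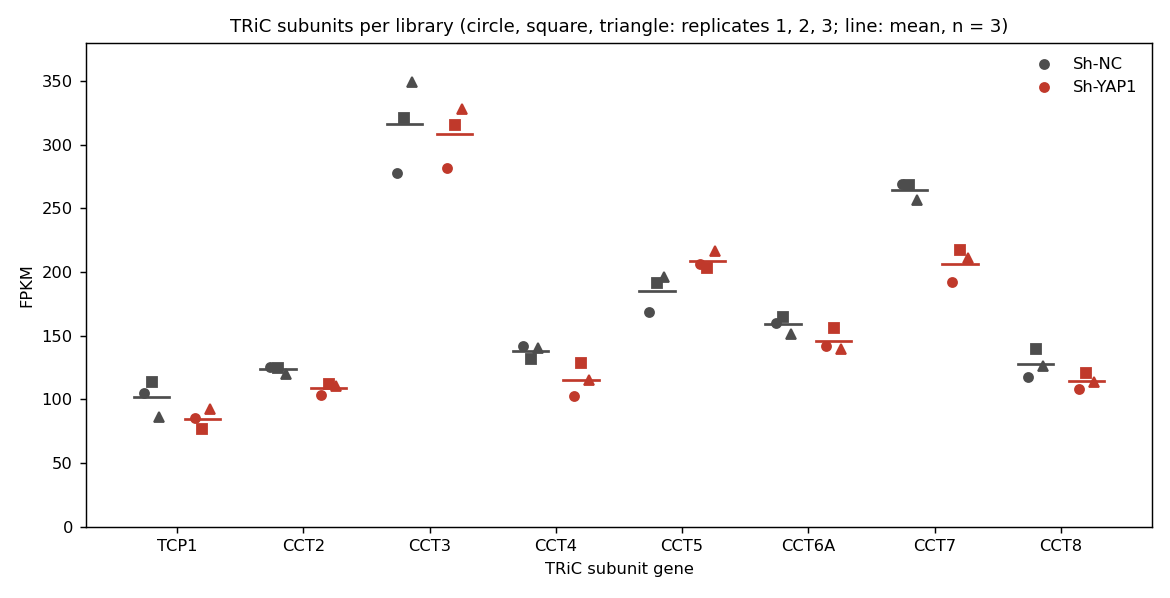
FPKM of the 8 TRiC subunit genes by library (circle, square and triangle for replicates 1, 2 and 3, lines for the means of 3 libraries, y axis from 0). CCT7, CCT4 and CCT2 lie lower in every Sh-YAP1 library, CCT5 lies higher, and CCT3 has the highest mean in both groups.

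Read against the upstream letters, the 16 members with a 2-unit heat shock element had a median log2 fold change of -0.16, with 12 lower, 4 higher and 0 called. The 20 members with a window and no such element had a median of -0.07, with 11 lower, 9 higher and 1 called. No test was run on this split. HSP90AB1 was lower in every Sh-YAP1 library. Its 3-unit runs lie in 1 of its windows, and its other windows hold no 2-unit match. HSP90AA1, HSPD1, HSPA8 and DNAJB6, the other 4 genes with 3 units, had values that overlapped between the groups.

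Each gene value is a sum over transcript rows, and the rows were less steady than the sums. The members have 371 rows, of which 259 were tested at a mean of at least 0.1 FPKM, and 0 were called (limma, lowest adjusted p 0.305), beside 0.0515% of all 77655 rows. At an unadjusted p under 0.05, 9 rows were lower and 3 higher, which is 3.47% and 1.16% of the rows tested, beside 3.26% and 2.87% of all rows. In 30 members the same row led in all 6 libraries. In the other 10 it did not, and HSPA9, HSPD1 and CCT3 were among them. The leading row of HSPA9 carried between 1.10% and 97.2% of the gene. Its next row was at 64.8, 61.0 and 79.1 FPKM in Sh-NC and at 0, 4.65 and 23.6 FPKM in Sh-YAP1, with an adjusted p of 0.677 (limma). For HSPD1, a row at 144 FPKM in Sh-NC replicate 2 was at 3.08 FPKM in Sh-NC replicate 1, where another row held 132 FPKM. Over the members, 34 rows were above 1 FPKM in exactly 1 library, and 6 of these were above 10 FPKM there and at 1 FPKM or less in the other 5. How the quantification divided fragments between rows was not tested.

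**Figure D5:**
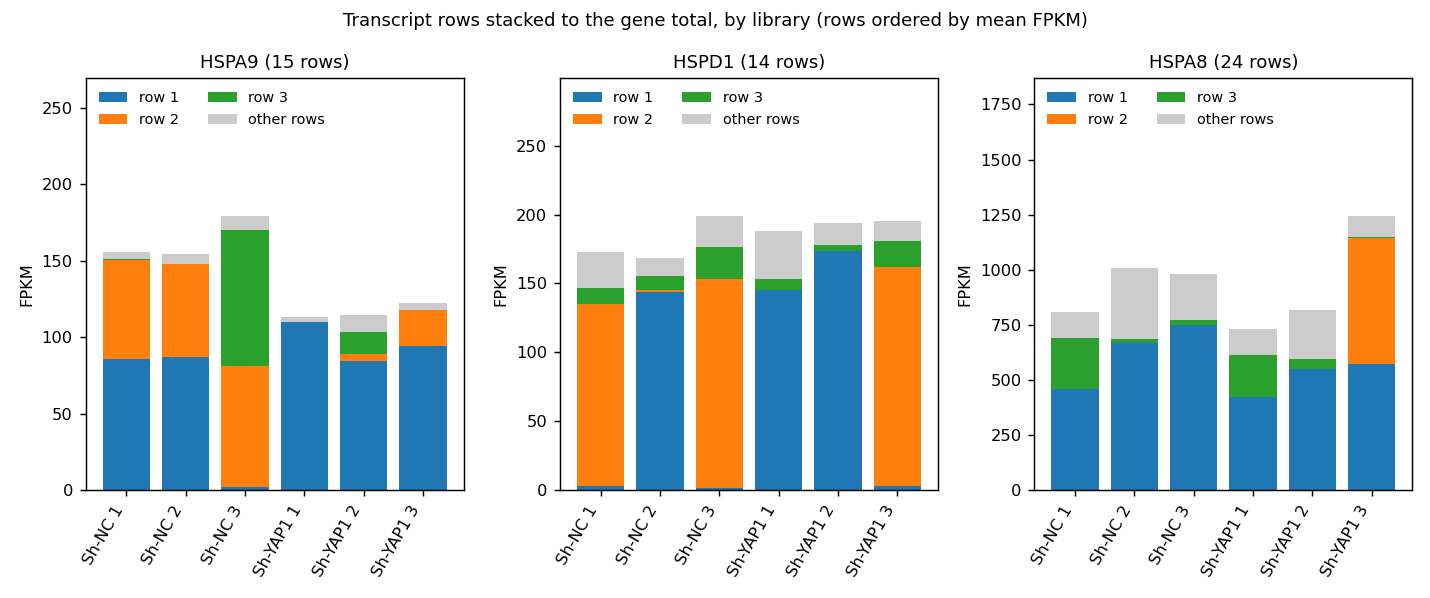
Transcript rows of HSPA9, HSPD1 and HSPA8 stacked to the gene total in each library (y axes in FPKM, the 3 rows with the highest means in colour and the others in grey). The totals of HSPA9 are lower in all Sh-YAP1 libraries although the rows change places, and row 2 of HSPA8 is present in Sh-YAP1 replicate 3 alone.

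Genes around the members were read from lists of 80 further chaperones and partners, of which 70 passed the filter. Of these, 1 rose and 2 fell, and 7 were higher and 8 lower at an unadjusted p under 0.05. These are 4.29% called and 21.4% at an unadjusted p under 0.05, near the 3.38% and 21.9% of all genes tested, and the median log2 fold change was -0.05. PPID, the cyclophilin CYP40 that docks on HSP90, fell from 18.4, 20.1 and 19.3 FPKM in Sh-NC to 11.7, 10.9 and 12.3 FPKM in Sh-YAP1, a log2 fold change of -0.68 with an adjusted p of 0.0130 (limma). TOMM34, which links HSP70 and HSP90 to mitochondrial import, rose from 88.1, 92.3 and 89.8 FPKM to 114, 122 and 120.3 FPKM, a log2 fold change of 0.40 with an adjusted p of 0.0268 (limma). The groups did not overlap for either gene. PFDN1, a subunit of prefoldin, which delivers chains to TRiC, fell from 78.7, 75.5 and 76.3 FPKM to 63.3, 61.3 and 61.8 FPKM, a log2 fold change of -0.30 with an adjusted p of 0.0488 (limma). With any 1 library left out, PPID was called in 3 of 6 fits and TOMM34 and PFDN1 in 0.

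The lists themselves were mixed. Of 10 other heat-inducible genes, 7 were tested, 0 were called (limma), 1 was lower at an unadjusted p under 0.05 and all 7 had lower values, with a median of -0.16. HSPA6, an HSP70 gene that is nearly silent without stress, was at 0.30 to 0.57 FPKM, under the filter. Of 18 other J-domain genes, 0 were called (limma), 3 were higher at an unadjusted p under 0.05, 6 had higher and 12 lower values, and DNAJC13, an endosomal J-domain protein, had the highest log2 fold change of all the listed partners, 0.41 with an adjusted p of 0.104 (limma). The 13 mitochondrial and ER chaperones had a median of 0.06 with 0 called (limma) and 1 higher and 2 lower at an unadjusted p under 0.05, the 10 prefoldin and TRiC partners a median of -0.04 with PFDN1 called, and the 16 HSP70 exchange and HSP90 partners a median of -0.11 with PPID and TOMM34 called. The 5 tubulin cofactors, which take tubulin on from TRiC, had a median of 0.07, with 0 called and 0 at an unadjusted p under 0.05 (limma). Of 8 other small heat shock proteins and heat shock factors, HSF4 alone passed the filter, with a log2 fold change of 0.34 and no call.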

How the data were processed

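Total RNA of 3 Sh-NC and 3 Sh-YAP1 libraries was sequenced for the authors, who deposited FPKM values, 1 for each of 229420 transcript rows and library, with 2 decimals. The submitters' processing notes name HISAT2 2.0, Bowtie 0.12.2 and hg19, without saying how each was used; the quantification tool and annotation are not given in the sources used here. These steps are fixed in the values, and without counts no interval for sampling error could be formed. Gene values were sums of transcript rows, and positions came from GENCODE 29 on GRCh38.

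Values were taken as log2(FPKM + 1), which understates changes of low genes. The 14770 genes that averaged 0.5 FPKM or more and the 77655 rows that averaged 0.1 FPKM or more were fitted with limma 3.58.1 in R 4.3.3 (condition only, mean-variance trend, Benjamini-Hochberg adjustment over all features). The study's general test for comparing groups is not tied to the sequencing. Shares and sums were compared with exact two-sided permutation tests in scipy 1.17.1. Other steps used Python 3.11.15, and the code was tested on simulated data. Upstream sequences are from RefSeq.

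The members and lists were chosen with earlier results of these data known. Every member is named, and library values are given for called members, the factors, the best-known inducible and constitutive genes and the extremes; of other genes, YAP1, the called partners and those with the highest and the lowest log2 fold change are named. The HSPA9 share, the sum over TRiC and the split by element were formed, and HSPA6 and HSF4 named, after values were seen. Alternatives covered pseudocounts of 0.1 and 0.01, quantile normalization, median centring, no trend, no filter, a stricter minimum of 1 FPKM, sums of only those rows that averaged 0.1 FPKM, the replicate block and each library left out.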

Additional observations from a re-analysis of the deposited data

How the results depend on the processing

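The median log2 fold change of all genes tested stayed between -0.018 and 0.0024 under quantile normalization, median centring, no filter, no trend and rows left out. Of 400 values of members under settings other than a library left out, 385 kept direction and side of the threshold, and 31 of 40 members kept their direction in every setting. The number of members called was 2 with a pseudocount of 0.01, median centring (498 of all genes called) or the stricter filter (CCT7 joined HSPA9), and 0 without the trend or the filter. It was 0 to 0 without any single library, while 78 to 171 of all genes were called. Same-numbered libraries were not treated as pairs in the main fit, and whether they are pairs is not known. Over the genes tested their deviations correlated at -0.028, 0.062 and 0.004. A CCT2 row, however, was at 104 and 93.7 FPKM in replicate 3 of the groups and at 0.07 FPKM or less in the other libraries. With the replicate block 0 members and 1 gene in all were called. In that fit 9 of the 40 members and 2779 of the 14770 genes had an unadjusted p under 0.05 (limma). Without the filter 30501 genes were tested and 232 called, and without the trend 433 were called.

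The median of the HSF1-induced genes was -0.127 and -0.129 with pseudocounts of 0.1 and 0.01, -0.081 with quantile normalization and -0.129 with median centring, and -0.15 to -0.023 with a library left out. Quantile normalization gave medians of -0.077 for the constitutive and -0.11 for the TRiC genes, and it turned HSF1 to 0.015, HSPA8 to 0.038, DNAJB6 to 0.0043 and CCT3 to 0.045. Median centring turned HSF2 to -0.0035 and HSPB11 to -0.004. Leaving out rows above 1 FPKM in 1 library, a choice made after seeing the data, gave -0.14 for the constitutive median, turned CDC37 to -0.17, CCT3 to 0.075 and CCT8 to 0.43, and left 346 genes called. For CCT8 and CDC37 this drops part of a library total that, with all rows, lay among those of the other libraries. With a library left out, HSF1 ran from -0.11 to 0.064, HSF2 from -0.011 to 0.037, HSPE1 from -0.51 to 0.054, HSPA8 from -0.26 to 0.12, HSPB11 from -0.025 to 0.074, DNAJB6 from -0.39 to 0.17 and CCT3 from -0.12 to 0.042. In all, 21 of 40 members, 19 of them with overlapping groups, moved by over 1.5 times or changed sign when 1 library was left out. Their causes were not tested. Depth is unknown, so small differences of low genes such as HSPA2 or HSPB8 carry a sampling error that the values do not show.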
